A study of Mus musculus with 8 samples.

Results

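The transcription of 10 cytokine genes was followed in mouse macrophages and pre-adipocytes kept in co-culture. They were the colony-stimulating factors Csf1, Csf2 and Csf3, the IL-6 family ligands Il6, Il11 and Lif, the IL-1 family genes Il1a, Il1b and Il1rn, and Tnf. These 10 of the 32395 genes and unnamed accessions on the array were picked by name, with earlier results of the same arrays known. Their differences between arrays are therefore given as a description and without a test. They were read by 12 probes on 48 spots of each array: Csf2, Il1b and Tnf had 1 probe printed as 10 spots, Csf1 had 3 probes of which 1 was printed as 10 spots, and the other members had a single spot.

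Macrophages and pre-adipocytes talk to each other through secreted cytokines. Colony-stimulating factors bind receptors on myeloid cells and govern their survival, growth and activation, the IL-6 family signals through the shared receptor chain gp130 to JAK kinases and STAT factors, and IL-1 and TNF signal to NF-kB. Stromal cells such as fibroblasts and pre-adipocytes are a known source of colony-stimulating factors and of IL-6 family ligands, and activated macrophages are a known source of TNF and IL-1 beta. Glucocorticoids are known for lowering the messenger RNA of many of these cytokines.

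The study asked how the stress hormones cortisol and serotonin act on both cell types when they share their medium. 3T3-L1 is a line of mouse embryo fibroblasts used as pre-adipocytes, labelled 3T3L-1, and RAW 264.7 is a macrophage line from BALB/c mice, labelled Raw264.7. All cells came from transwell co-cultures of both lines at 48 h. Each line gave 4 arrays: untreated cells and cells given cortisol, serotonin or both (cortisol-serotonin). By the methods, RNA was taken from the cells in the lower well. The set-up with 3T3-L1 cells there and the set-up with macrophages there were separate and had different cell numbers. Either hormone was given at 100 µM, in the joint treatment too by the labels, for which the methods name a single dose. Labelled RNA of the cells was read as Cy5 and a common reference as Cy3 on the same two-colour array. The methods describe the reference as pooled cRNA of untreated cells grown alone and the labels describe it as a mixture of every sample, and this was not settled here. Each condition had 1 array, so no difference has a replicate check. Both lines are single established lines on 1 slide each, so that slide, co-culture set-up and cell line cannot be told apart.

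The median Cy5 signal of an array was 62 to 79 units for 3T3-L1 cells and 51 to 103 units for macrophages, with backgrounds of 26.5 to 28, and between 43.7% and 47.8% of spots were well above background in both channels. Of 10 macrophage markers, 9 had a value on all arrays, and their summed level in normalised Cy5 units was 7432 to 22246 in 3T3-L1 cells and 146491 to 183949 in macrophages. Adgre1, Fcgr1 and Spi1 were not well above background in 3T3-L1 cells, while the other 6 were. Fcgr1 was also not well above background on the macrophage arrays labelled cortisol and cortisol-serotonin. The summed level of 8 fibroblast markers was 210053 to 279407 in 3T3-L1 cells and 2516 to 6130 in macrophages, where Pdgfra and Postn were not well above background. Sparc was not either on the macrophage array labelled cortisol-serotonin. Glucocorticoid targets went against the hormone labels. Fkbp5, a chaperone of the glucocorticoid receptor, stood at 0.14 from untreated 3T3-L1 cells on the log2 scale for the cortisol label, 1.31 for serotonin and 1.44 for cortisol-serotonin, the repressor Zbtb16 at -0.19, 1.94 and 1.96, and Tsc22d3, an anti-inflammatory leucine zipper protein, at -1.06, 0.41 and 0.77. Against the array labelled cortisol, Per1 was 2.04-fold and Sgk1 2.88-fold higher on that labelled cortisol-serotonin. The median over 6 such genes was -0.30, 0.80 and 0.78 (0.23, 2.11 and 1.94 with median centring, which lifts all genes), and in macrophages, over 5 genes, it was -0.29, 0.36 and 0.16. The arrays are therefore called by their labels throughout, and no difference below is credited to a hormone.

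The promoters of 5 members that were higher on the array labelled cortisol in 3T3-L1 cells are shown because they are the stretches in which such genes are commonly controlled. Windows of the RefSeq promoter table (build GRCm38.p6, 250 bases before to 50 after a gene's start) were found for 9 of the 10 members, 12 windows in all, and not for Csf3. The 250 bases before the start follow, 5′ to 3′ on the gene's own strand, with capitals at every match to 1 of 5 letter patterns searched on both strands: an AP-1 site (TGACTCA), a kB-like site (GGG and TTTCC with any 2 bases between), a C/EBP-like site (TTGCNNAA), a glucocorticoid element (AGAACA and TGTTCT with any 3 bases between) and a TATA box (TATAAA).
Csf2 (chr11:54249900-54250149, minus strand): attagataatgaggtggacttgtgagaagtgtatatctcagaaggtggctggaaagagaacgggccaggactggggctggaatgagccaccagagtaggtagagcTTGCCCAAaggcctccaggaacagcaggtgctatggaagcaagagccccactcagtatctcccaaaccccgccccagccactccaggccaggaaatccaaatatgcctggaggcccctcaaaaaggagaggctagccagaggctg
Il6 (chr5:30012864-30013113, plus strand): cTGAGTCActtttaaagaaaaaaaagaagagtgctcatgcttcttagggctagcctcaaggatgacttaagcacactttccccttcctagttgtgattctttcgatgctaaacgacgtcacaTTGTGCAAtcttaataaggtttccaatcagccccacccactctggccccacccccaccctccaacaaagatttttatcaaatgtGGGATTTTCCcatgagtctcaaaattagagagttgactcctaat
Il11 (chr7:4778142-4778391, minus strand): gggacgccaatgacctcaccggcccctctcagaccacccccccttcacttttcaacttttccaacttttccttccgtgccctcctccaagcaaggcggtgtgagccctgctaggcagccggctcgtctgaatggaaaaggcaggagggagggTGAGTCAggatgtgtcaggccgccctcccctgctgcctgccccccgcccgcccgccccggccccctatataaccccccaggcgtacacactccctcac
Lif (chr11:4257318-4257567, plus strand): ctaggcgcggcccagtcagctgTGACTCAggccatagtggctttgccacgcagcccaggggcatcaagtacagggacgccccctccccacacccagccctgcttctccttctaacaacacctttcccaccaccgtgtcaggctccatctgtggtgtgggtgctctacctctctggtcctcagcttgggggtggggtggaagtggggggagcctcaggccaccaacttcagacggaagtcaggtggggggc
Il1a (chr2:129309973-129310222, minus strand): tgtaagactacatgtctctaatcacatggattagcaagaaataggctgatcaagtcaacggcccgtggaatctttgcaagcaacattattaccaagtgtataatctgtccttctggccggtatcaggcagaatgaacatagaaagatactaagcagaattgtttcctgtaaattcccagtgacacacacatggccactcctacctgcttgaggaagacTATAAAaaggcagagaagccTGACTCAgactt

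In Il11, Lif, Il1a and Il6 the capitals hold the AP-1 letters, at -98, -228, -12 and -249 from the start. Il6 also held the kB-like letters at -44 and the C/EBP-like letters at -128, Csf2 held the C/EBP-like letters at -145, and Il1a held a TATA box at -32. Over all members, AP-1 letters were in 5 of the 12 windows, those of Il11, Il6, Il1a, Lif and Il1rn, against 5.2% of all 32851 windows of that length, and the second Il11 window held none of the patterns. The kB-like letters were in 4 windows, of Csf1, Il6 and both overlapping ones of Il1rn, against 1.63% of all. TATAAA was in 4, including those of Tnf and Il1b, against 13.6%, the C/EBP-like letters were in 2 against 10.8%, and the glucocorticoid element was in 0 against 0.00913%. A match is a run of letters and was not tested as a binding site, and no match says only that these letters are not in the window.

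In the co-cultured pre-adipocytes the differences past 2-fold from untreated were nearly all on the array labelled cortisol. Csf3, Il11, Csf2 and Il1a were at least 2-fold higher there than on the untreated array, by 3.56-, 3.01-, 2.99- and 2.15-fold, which is 4 of the 9 members measured, where 0.416% of all 13718 measured genes were as much higher. Lif, at 1.87-fold, was the nearest member short of 2-fold, and Il6 was 1.60-fold higher. No member was 2-fold lower, as 1.23% of all genes were, and the median log2 difference of the members was 0.91 against 0.01 for all genes. The members were picked with these differences known, so their share says nothing about how often such genes would differ.

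**Figure D1:**
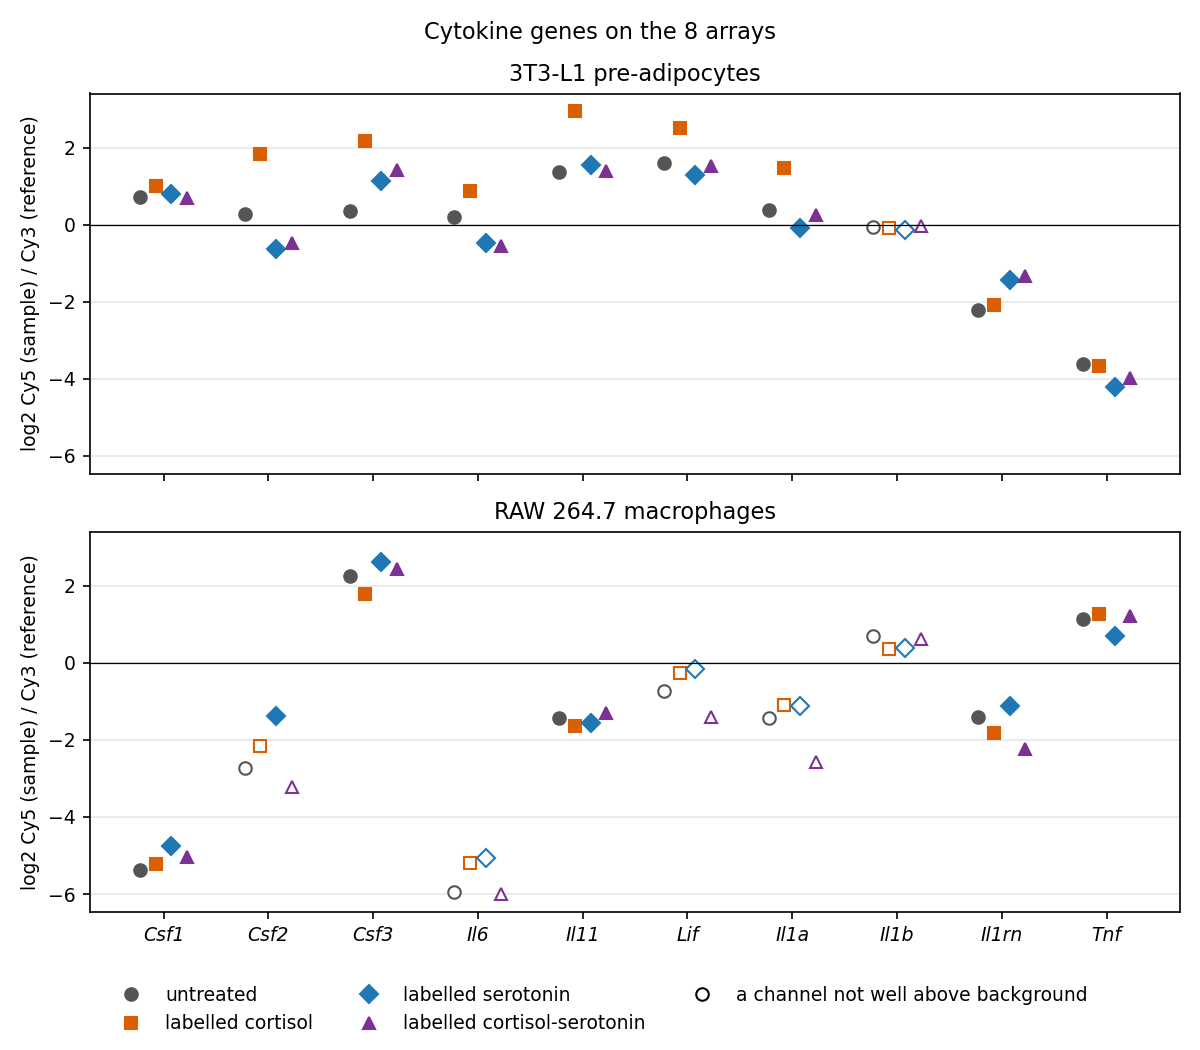
Log2 ratio of sample (Cy5) to reference (Cy3) of each cytokine gene on the 8 arrays, 1 point per array, with the 3T3-L1 arrays above and the RAW 264.7 arrays below and the mean of the 3 probes for Csf1. Open symbols mark a gene with a channel not well above background, and in 3T3-L1 cells the squares of the array labelled cortisol are the highest for Csf2, Csf3, Il6, Il11, Lif and Il1a.

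Csf2 encodes GM-CSF, which drives the growth and activation of macrophages and granulocytes. Its log2 ratio to the reference in 3T3-L1 cells was 0.27 untreated, 1.85 on the array labelled cortisol, -0.64 on that labelled serotonin and -0.47 on that labelled cortisol-serotonin. The array labelled cortisol was the highest and both arrays with serotonin in the label were below the untreated one, though above it, by 0.12 and 0.23, with median centring. The difference from untreated was 1.58 (Feature Extraction error 0.35, an error the scanner software models for each spot and not a spread of replicates), -0.91 (error 0.30) and -0.75. The median Cy5 signals followed the same order, 757 untreated, 1615, 439 and 509, while the reference signal lay between 929 and 1123. The 10 spots of the probe had SDs of 0.03 to 0.09 on the log2 scale, far below these differences, but repeated spots share 1 RNA sample.

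Csf3 encodes G-CSF, the growth factor of neutrophils. Its log2 ratio in 3T3-L1 cells was 0.35 untreated, 2.18 on the array labelled cortisol, 1.13 on that labelled serotonin and 1.42 on that labelled cortisol-serotonin. All 3 treated arrays were above the untreated one, so that Csf3 did not share the order of Csf2. The differences were 1.83 (error 0.38), 0.78 and 1.07 (error 0.34), or 3.56-, 1.72- and 2.11-fold. Csf3 was the 4th highest of 13718 genes in the first of these, Il11 the 7th and Csf2 the 8th.

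Csf1 encodes M-CSF, the factor macrophages need to survive and differentiate. The probe with 10 spots gave 0.37 untreated, 0.10 on the array labelled cortisol, 0.10 on that labelled serotonin and 0.20 on that labelled cortisol-serotonin in 3T3-L1 cells. A probe to a different Csf1 transcript gave 0.88, 1.38, 1.14 and 0.89, and another to that transcript 0.88, 1.51, 1.15 and 1.01. The probes disagreed in direction for the array labelled cortisol, with differences of -0.26, 0.50 and 0.62, and their mean was 0.29. All lay within 2-fold. With median centring, which lifts all genes, the mean of the probes was past 2-fold on all 3 treated arrays, at 1.26, 1.53 and 1.21, and relative to the shift of all genes it was 0.67, 0.45 and 0.21.

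Il11 encodes interleukin 11, a cytokine of stromal cells that acts through gp130. Its log2 ratio in 3T3-L1 cells was 1.36 untreated, 2.96 on the array labelled cortisol, 1.55 on that labelled serotonin and 1.39 on that labelled cortisol-serotonin. The array labelled cortisol alone was set apart, and the other 3 lay within 0.19 of each other. The difference was 1.59 (error 0.45) on that array, 0.19 with the serotonin label and 0.03 with both.

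Lif encodes leukaemia inhibitory factor, another gp130 ligand. Its ratios in 3T3-L1 cells were 1.60 untreated, 2.50, 1.30 and 1.52 in the same order, with differences of 0.91, -0.30 and -0.08. Il6 encodes interleukin 6, the founding member of the family, and its ratios were 0.19, 0.87, -0.47 and -0.56. Il6 lay above untreated on the array labelled cortisol, by 0.68, and below it on the others, by differences of -0.66 and -0.75, none of them 2-fold. With median centring the last pair turned to 0.68 and 0.38. Before normalisation the Cy5 signal of Il6 was 4256 units untreated, 5128 on the array labelled cortisol, 4728 on that labelled serotonin and 3078 on that labelled cortisol-serotonin, so that the order of the serotonin label and untreated turned with the normalisation.

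Il1a encodes IL-1 alpha, a cytokine held in the cell or at its surface that acts on the IL-1 receptor. Its ratios in 3T3-L1 cells were 0.38 untreated, 1.48 on the array labelled cortisol, -0.09 on that labelled serotonin and 0.26 on that labelled cortisol-serotonin, with differences of 1.11 (error 0.34), -0.47 and -0.12. Il1a had the same order of arrays as Lif. Il1b, which encodes the secreted IL-1 beta, was not well above background on any 3T3-L1 array, with Cy5 signals of 39 to 46 units.

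Il1rn encodes the antagonist that blocks the IL-1 receptor. Its ratios were -2.22 untreated, -2.09 on the array labelled cortisol, -1.43 on that labelled serotonin and -1.33 on that labelled cortisol-serotonin. Both arrays with serotonin in the label were higher than the other pair, by differences from untreated of 0.80 (error 0.43) and 0.90 (error 0.42), short of 2-fold. The call depended on the processing: Il1rn passed 2-fold on both arrays with Feature Extraction's log ratio (1.38 and 1.5), with no background correction (1.11 and 1.22) and with median centring (1.76 and 1.81). Tnf, the inflammatory cytokine of macrophages, had ratios of -3.61, -3.66, -4.21 and -3.98 in that order and differences of -0.05, -0.59 and -0.36 with errors of 0.60 to 0.63. Tnf in 3T3-L1 cells did not differ beyond those errors. The measured macrophage markers on the same arrays had median differences of -0.11, -0.50 and -0.27, while their summed level was 12698 units untreated and 14891, 7432 and 22246 on the arrays labelled cortisol, serotonin and cortisol-serotonin. The part of macrophage RNA in the Tnf values was not tested. In RNA of whole cultures, fewer cells of a type and less RNA per cell cannot be told apart.

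With the serotonin label, 0 of the 9 measured members were 2-fold higher or lower, where 1.24% of 13590 genes were, and on the array labelled cortisol-serotonin only Csf3 was 2-fold higher, where 0.784% of 13400 genes were. With no background correction Csf3 fell short there, at 0.94, and Il1rn passed 2-fold instead, at 1.22. The members' medians were -0.30 and -0.08. Directions on these arrays turn on the scaling. With each array centred on its median in place of loess, the median of all genes moved to 0.59, 1.07 and 0.99 on the arrays labelled cortisol, serotonin and cortisol-serotonin, and Csf2, Il6, Lif, Il1a and Tnf then had values above 0 on the 2 arrays with serotonin in the label. Relative to the shift of all genes they stayed below: Csf2 at -0.95 and -0.77, Il6 at -0.39 and -0.61, and Lif at -0.65 and -0.37. On the array labelled cortisol the same relative differences were 1.63 for Csf3, 1.56 for Il11, 1.54 for Csf2, 0.96 for Il1a, 0.93 for Il6 and 0.66 for Lif.

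**Figure D2:**
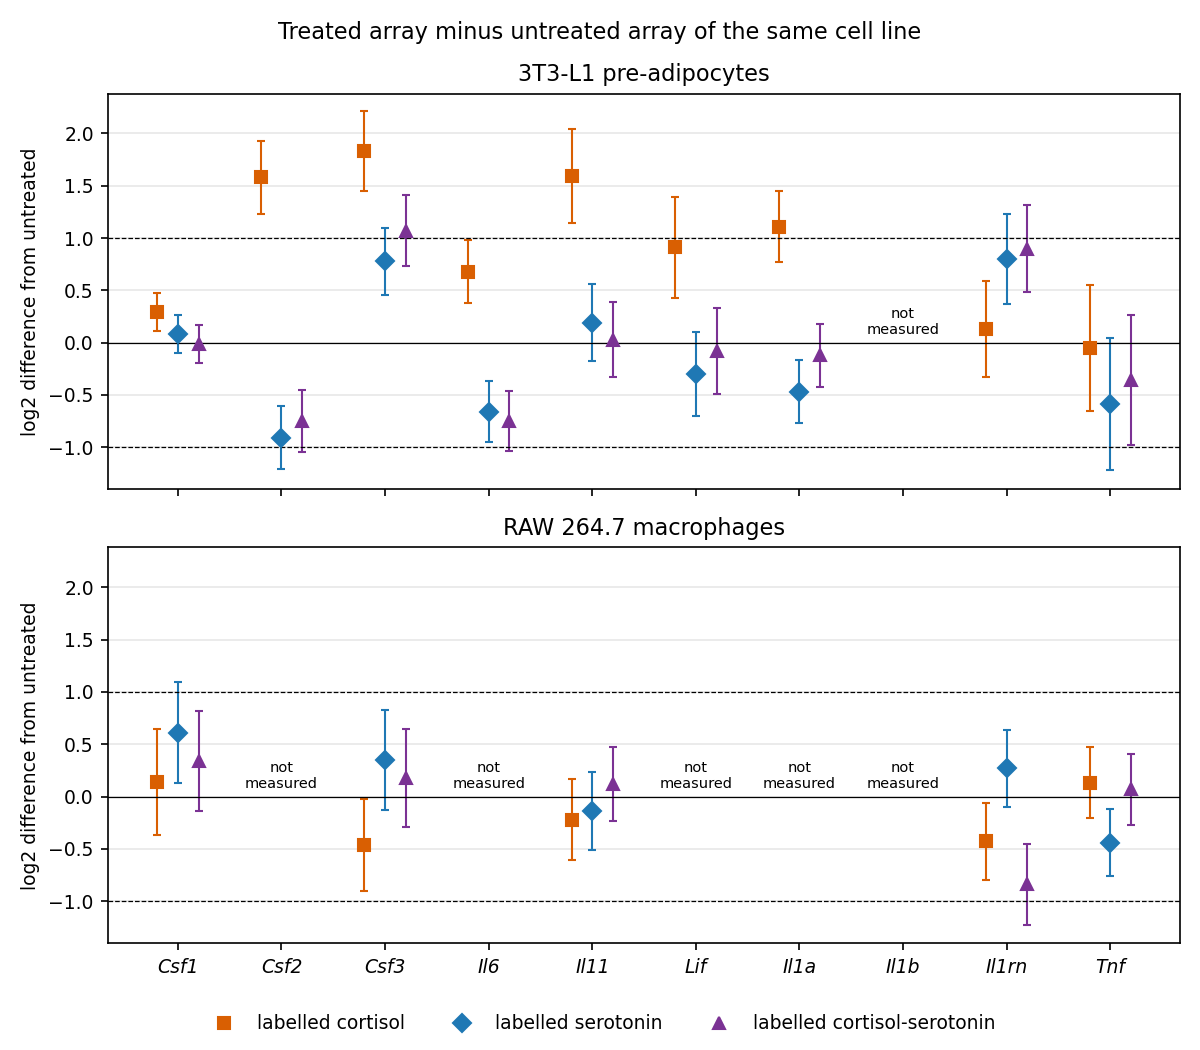
Log2 difference of each treated array from that line's untreated array, with Feature Extraction's modelled error as bars and dashed lines at 2-fold, for 3T3-L1 cells above and RAW 264.7 cells below. In 3T3-L1 cells 4 squares of the array labelled cortisol lie past 2-fold, and in RAW 264.7 cells no measured member does.

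**Figure D3:**
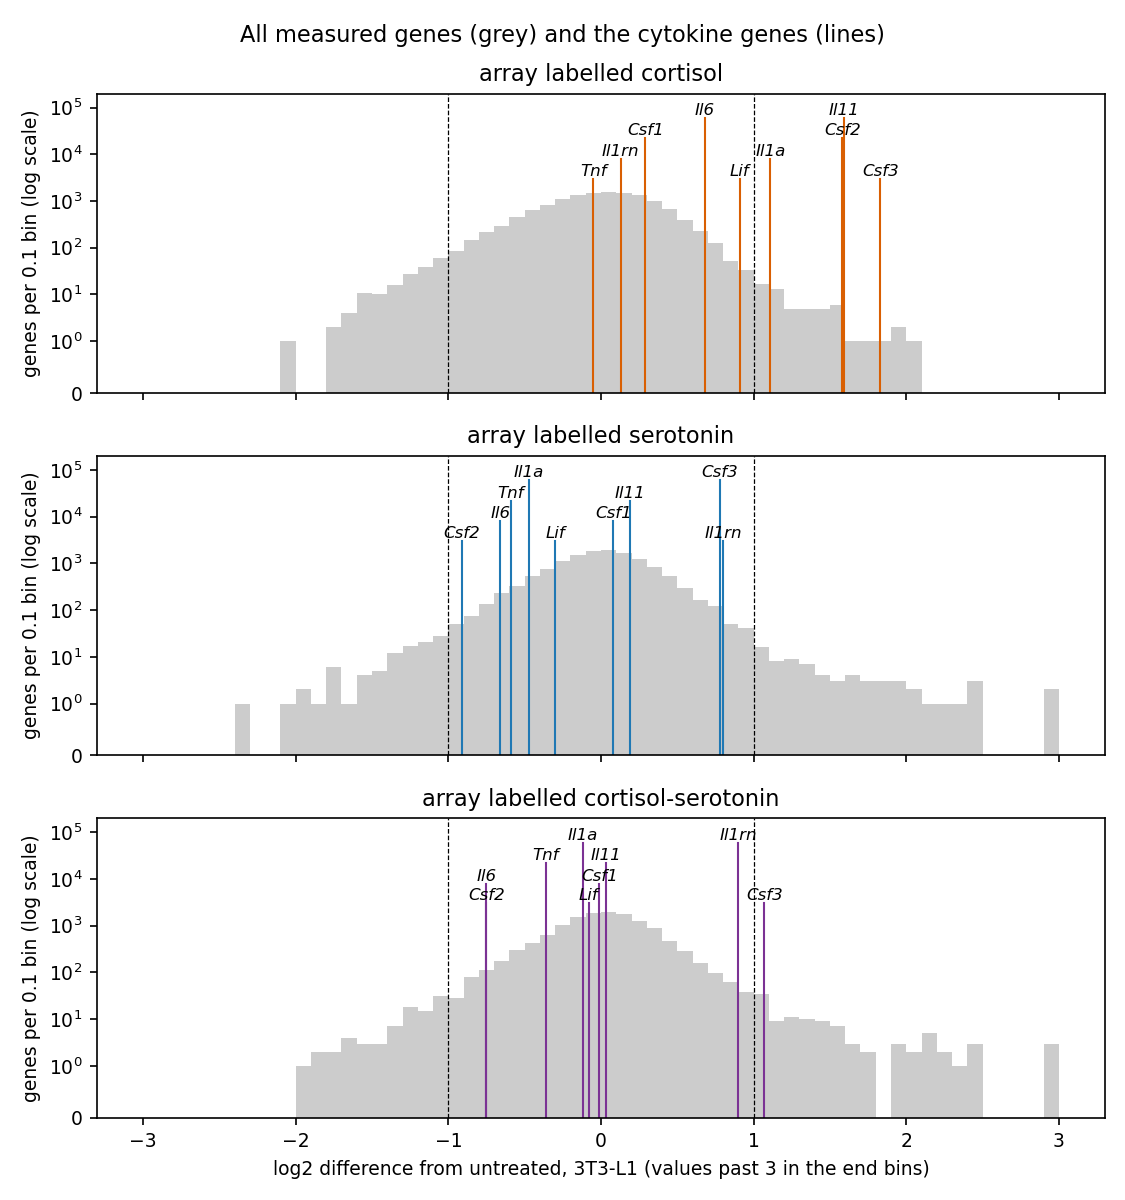
Number of genes (log axis) by log2 difference from untreated in 3T3-L1 cells for the 3 treated arrays, with the cytokine genes as lines whose heights only keep the names apart and dashed lines at 2-fold. On the array labelled cortisol Csf3, Il11 and Csf2 lie in the far upper tail, and on the array labelled serotonin all members lie within 2-fold.

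The array labelled cortisol-serotonin was closest to that labelled serotonin. Set against the array labelled cortisol, it had Csf2 5.02-fold lower, Il11 2.96-fold lower, Il6 2.69-fold lower and Il1a 2.34-fold lower, which is 4 of 9 members where 0.508% of 13394 genes were 2-fold lower. Csf2 was the 2nd lowest of all genes in this comparison. Lif, at 1.98-fold lower, was just short of 2-fold, and Csf3 was 1.69-fold lower. Il1rn was higher, by a difference of 0.76. Set against the array labelled serotonin, all 9 differences lay between -0.16 and 0.35, where 0.0974% of 13352 genes were 2-fold changed. The serotonin label without cortisol in it (serotonin against untreated) and with it (cortisol-serotonin against cortisol) went the same way in 6 of 9 members, but their sizes differed: Csf2 gave -0.91 and -2.33, Il6 -0.66 and -1.43, Il1a -0.47 and -1.22, and Il1rn 0.80 and 0.76. The other 3 gave opposite signs: Csf3 0.78 and -0.76, Il11 0.19 and -1.57, and Csf1 0.08 and -0.29. The cortisol label gave Csf2 1.58 without serotonin and 0.16 with it, Il11 1.59 and -0.16, and Il1a 1.11 and 0.35. Whether these differences of differences exceed the spread between cultures was not tested, since each rests on 4 single arrays.

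In the co-cultured macrophages 5 of the 10 members were measured on every array, and 0 of them differed 2-fold from untreated on any treated array. Among all genes, 0.083% of 13252 did so on the array labelled cortisol, 0.914% of 12697 on that labelled serotonin and 0.254% of 13360 on that labelled cortisol-serotonin. Csf3 had ratios of 2.25 untreated, 1.79 on the array labelled cortisol, 2.61 on that labelled serotonin and 2.43 on that labelled cortisol-serotonin. The array labelled cortisol was the lowest, where it had been the highest in 3T3-L1 cells. Its difference was -0.46 (error 0.44), beside 0.35 and 0.18 for the others. With the Cy5 channel alone the array labelled serotonin was past 2-fold, at 1.04. Il11 differed by -0.22, -0.14 and 0.12, all within the error.

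Tnf had ratios of 1.14, 1.28, 0.70 and 1.21 in macrophages, in the order untreated, cortisol, serotonin and cortisol-serotonin. The array labelled serotonin was the lowest, by a difference of -0.44 (error 0.32), with a Cy5 signal of 9070 units against 11373 to 14309 on the other arrays. With the Cy5 channel alone that difference was 0.01. Csf1 was far below the reference in macrophages, at -4.60, -4.65, -4.28 and -4.26 on its 10-spot probe, and the mean of its 3 probes differed from untreated by 0.61 (error 0.48) on the array labelled serotonin, or 0.07 with the Cy5 channel alone. On that array 7 measured fibroblast markers had a median difference of 0.70, and Col3a1 a difference of 2.0, while their summed level was 4781 against 6130 units on the untreated array. The part of pre-adipocyte RNA in the Csf1 value was not tested.

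Il1rn in macrophages was -1.40 untreated, -1.83 on the array labelled cortisol, -1.13 on that labelled serotonin and -2.23 on that labelled cortisol-serotonin. The only 2-fold difference of a measured member between macrophage arrays was that of Il1rn on the array labelled cortisol-serotonin against that labelled serotonin, -1.10 or 2.14-fold lower, where 0.533% of 12389 genes were as much lower. This value depends on the reference channel. The Cy3 signal of the Il1rn probe was 366 units on the array labelled serotonin and 973 to 2012 on the other 3 macrophage arrays, although every array holds the same reference, and with the Cy5 channel alone the difference was 0.86, of opposite sign. On the array labelled cortisol-serotonin the 8 measured macrophage markers also had a median difference of -0.36 from untreated. Of these, 6 lay below 0, with Itgam at -1.05 and Spi1 at -1.21, and 2 lay above. The summed level of the 9 markers with a value on all arrays was 175118 units there, against 171635 on the untreated array. The part of macrophage content in the Il1rn value of -0.84 was not tested.

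Il6, Lif and Il1a were not well above background in Cy5 on any macrophage array, with signals of 40 to 55, 46 to 84 and 38 to 60 units. Csf2 was well above background only on the array labelled serotonin, at 103 units against 40 to 50. That array was also brighter as a whole, with a median Cy5 signal of 103 units against 51 to 61. After normalisation Csf2 was there at least 1.71-fold above the untreated array, when the lowest signal that is well above background stands in for the untreated value. The reference signal of this probe varied from 352 to 1211 units between macrophage arrays, and the fibroblast marker values given above apply to this array too. Il1b was well above background in macrophages on 3 of 4 arrays, at 70 to 95 units, and not on the array labelled cortisol, at 51 units. The untreated array was at least 1.37-fold above that one. The Il1b reference signal was not well above background on any of the 8 arrays, so Il1b has no ratio here.

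For Csf1, Il11 and Tnf the cell lines were further apart than any of the treatments. Csf1 was 59.9-fold higher in 3T3-L1 cells, as the ratio of the means over 4 arrays each (mean log2 ratios 0.80 and -5.10). That value averages 3 probes. The probe with 10 spots was closer, at 0.10 to 0.37 in 3T3-L1 cells and -4.65 to -4.26 in macrophages. The other probes, of 1 spot each, were further apart, with dim macrophage Cy5 signals of 62 to 158 units. By the same ratio of means Il11 was 9.87-fold higher in 3T3-L1 cells (1.82 and -1.49). Tnf was 30.9-fold higher in macrophages (1.09 and -3.87). The 4 arrays of 1 line did not overlap the 4 of the other for these 3 of the 5 members measured on all 8 arrays, where 70.2% of 10995 genes did not overlap either, so that the share of the members is near that of all genes. Csf3 (0.35 to 2.18 and 1.79 to 2.61) and Il1rn (-2.22 to -1.33 and -2.23 to -1.13) overlapped. Il6 was at least 46.8-fold higher in 3T3-L1 cells, Lif at least 6.75-fold and Il1a at least 5.96-fold, bounds from the Cy5 channel since the macrophage signal was not well above background. Il1b was at least 1.34-fold higher in macrophages by the mean over all 4 arrays, 3 of which measured it. The 4 arrays of a line are 4 treatments and not replicates.

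The receptors of these ligands, fixed as a list of 14 genes, showed no 2-fold difference from untreated on any treated array of either line. Of all genes, 0.416% were that much higher and 1.23% that much lower on the 3T3-L1 array labelled cortisol. On the 3T3-L1 array labelled serotonin 1.24% differed that much, and on that labelled cortisol-serotonin 0.784% were that much higher. On the macrophage arrays 0.083% to 0.914% differed that much. A count of 0 in a list of this length is near those shares. In 3T3-L1 cells 13 receptors were measured on each comparison, with medians of 0.05, 0.12 and 0.13 on the arrays labelled cortisol, serotonin and cortisol-serotonin against 0.01, 0.01 and 0.02 for all genes. The highest value was that of Il6ra, the specific IL-6 receptor chain, at 0.89 on the array labelled cortisol-serotonin, followed by Il1r1, the signalling IL-1 receptor, at 0.82. Csf2rb2, a beta chain close in sequence to Csf2rb so that their probes may share signal, was -0.93 on the array labelled serotonin.

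Between the lines, 9 of the 11 receptors measured on all 8 arrays did not overlap, a share near the 70.2% of all genes. Csf1r, the M-CSF receptor, was 21.6-fold higher in macrophages, and the GM-CSF receptor chains Csf2ra, Csf2rb and Csf2rb2 were 9.87-, 11.8- and 14.7-fold higher. In 3T3-L1 cells Il1r1 was 21.8-fold higher, gp130 (Il6st) 13.9-fold, the IL-11 receptor Il11ra1 8.12-fold, and the TNF receptors Tnfrsf1b and Tnfrsf1a 3.46- and 1.48-fold. Csf1 was thus higher in the pre-adipocytes and its receptor in the macrophages, Tnf was higher in the macrophages and both of its receptors in the pre-adipocytes, and Il11 and its 2 receptor chains were all higher in the pre-adipocytes. The LIF receptor Lifr was well above background on all 4 arrays of 3T3-L1 cells and 1 of macrophages, and the decoy receptor Il1r2 on 1 and 0. Il6ra was measured on 4 arrays of 3T3-L1 cells and 2 of macrophages, so it has no ratio between the lines. Its mean normalised Cy5 level on the log2 scale was 11.12 in 3T3-L1 cells and 11.79 in macrophages. The G-CSF receptor Csf3r and the IL-1 receptor accessory chain Il1rap overlapped between lines. Macrophage markers in 3T3-L1 cells, of which Csf1r is 1, were above background as given above, and their part in the 3T3-L1 values of the GM-CSF receptor chains was not tested.

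**Figure D4:**
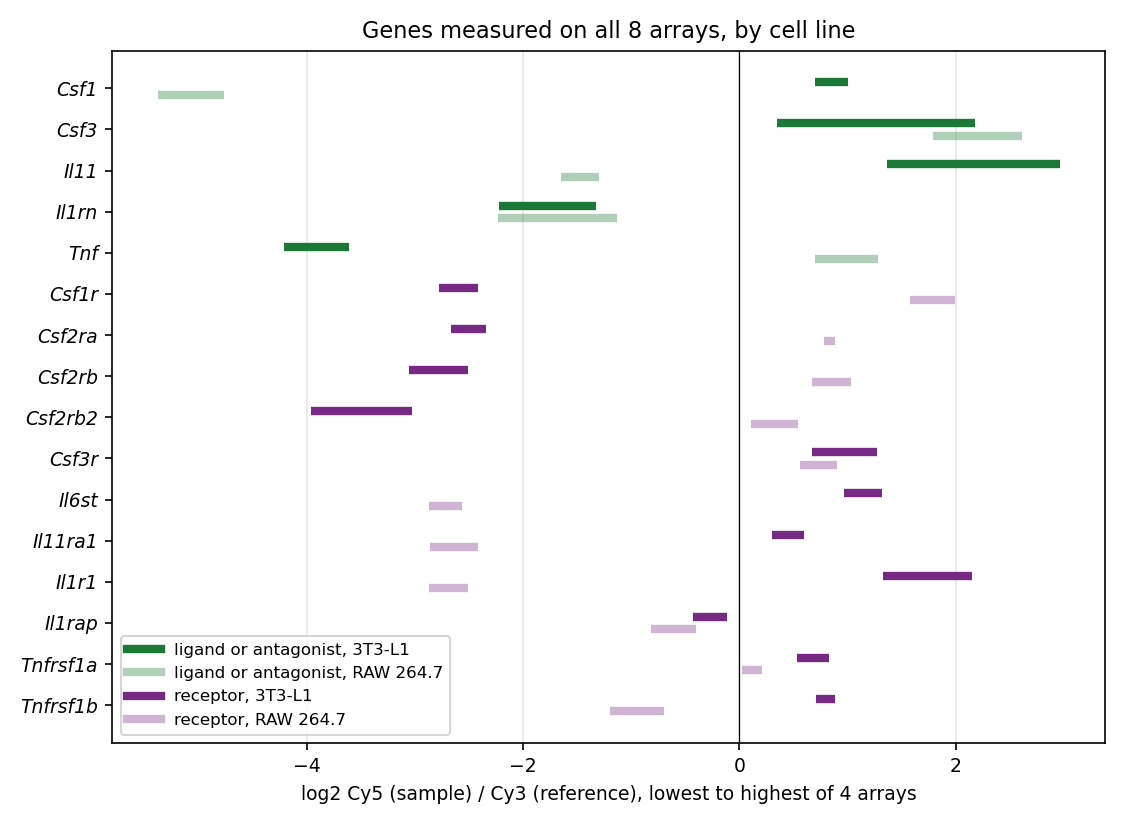
Range of the log2 ratio of sample to reference over the 4 arrays of each cell line, for ligands and the IL-1 antagonist (green) and receptors (purple), with 3T3-L1 cells in dark and RAW 264.7 cells in pale colour. Csf1, Il11, Il6st, Il11ra1 and Il1r1 lie to the right in 3T3-L1 cells, and Tnf, Csf1r and the Csf2 receptor chains in RAW 264.7 cells.

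The other genes of these pathways were counted from fixed lists, here in 3T3-L1 cells. The shares of all genes past 2-fold were 0.416% higher and 1.23% lower on the array labelled cortisol. A count of 0 in a short list is therefore near the background. Of 11 further ligands of the families, 10 were measured, 0 differed 2-fold from untreated on any treated array, and the medians were 0.13, -0.01 and 0.07. Of 18 signalling and feedback genes 16 were measured and 0 differed 2-fold, and Cish, a feedback inhibitor of STAT5 signalling, was 0.71 higher on the array labelled cortisol and, against that array, 2.28-fold lower on the cortisol-serotonin one. Of 18 NF-kB, AP-1 and C/EBP factors, 16 or 17 were measured and 0 differed 2-fold, with medians of 0.02, -0.13 and 0.01. Of the 16 on the array labelled cortisol, 8 lay above 0 and 8 below, from Fosl2 at -0.80 to Nfkb2 at 0.72. Of 7 genes that mature IL-1 and TNF, 0 differed 2-fold. Of 8 markers of other cell types only 2 were measured in these comparisons. The T cell gene Cd3e on the array labelled cortisol-serotonin was 3.10-fold lower than on that labelled cortisol and 2.13-fold lower than on that labelled serotonin. The other marker lay above 0 in both. The summed level of all 8 was only 820 to 960 units in 3T3-L1 cells, so these are dim signals.

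Many cytokine messages carry AU-rich elements. Of 8 genes whose products bind these elements or degrade the messenger RNAs that carry them, 5 or 6 were measured in 3T3-L1 cells. Among those, 2 differed 2-fold from untreated. Zfp36l2, a decay factor of that kind, was 3.01-fold lower on the array labelled cortisol. Zfp36l1, its paralogue, exceeded the untreated array by 2.01-fold where serotonin was the label and by 2.13-fold where both were. Of all genes, 1.23% were 2-fold lower on the array labelled cortisol. On that labelled serotonin 1.24% differed 2-fold, and on that labelled cortisol-serotonin 0.784% were 2-fold higher. A link between these values and those of the cytokine genes was not tested. In macrophages the values past 2-fold among these lists were those of Irak3, an inhibitor of IL-1 receptor signalling that was 1.15 higher on the log2 scale on the array labelled serotonin, and of the stress factor Atf3, which was 1.01 higher on the array labelled cortisol.

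The genes most like each 2-fold changed member were found over the 3 differences from untreated in 3T3-L1 cells, by root mean square distance among 10536 named genes. For Csf2 they were Il1f6, an IL-1 family cytokine, at a distance of 0.355 on the log2 scale, and the extracellular proteases Adamts4 and Mmp13 at 0.441 and 0.509. For Csf3 they were Nr1d1, Tob2 and Plk3 at 0.229 to 0.284, and for Il11 they were Dvl3, Flrt3 and the chemokine receptor Ccr7 at 0.219 to 0.27. For Il1a they were Tbx3 at 0.126, Lif, itself a member, at 0.152, and the macrophage lectin Clec4e at 0.176. The distance compares 3 numbers that share the untreated array and describes only these 4 arrays.

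**Figure D5:**
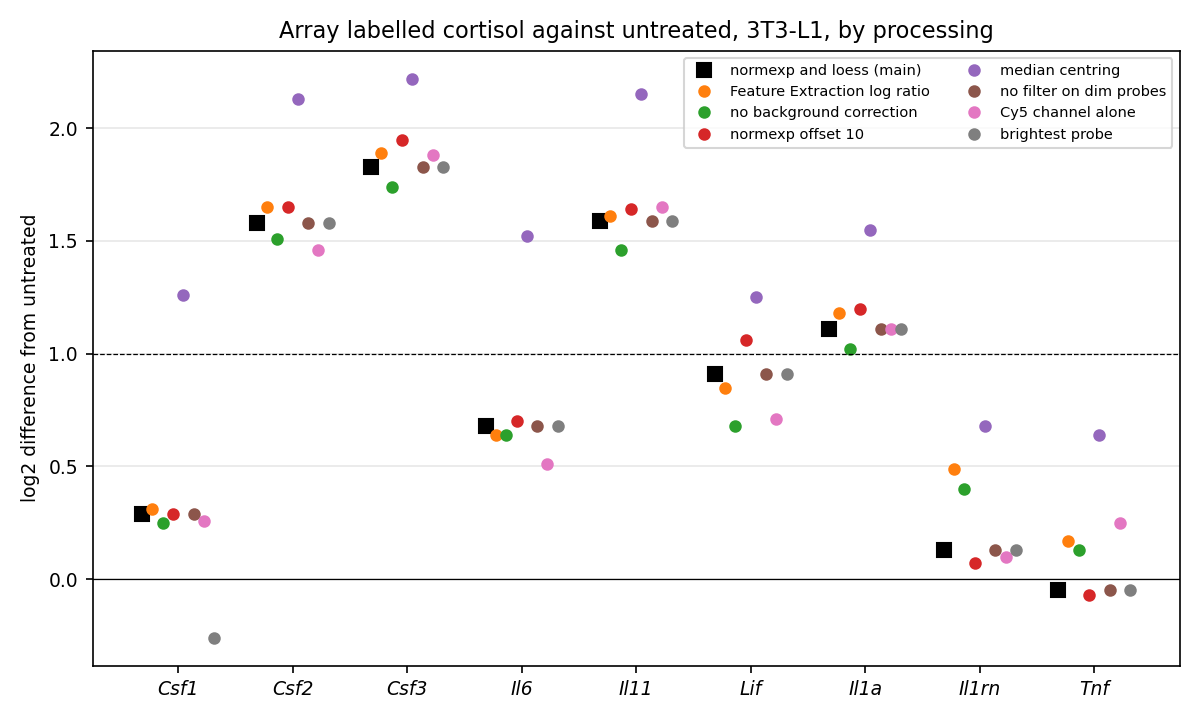
Log2 difference of the array labelled cortisol from the untreated array of 3T3-L1 cells for each measured member under the main processing (black squares) and 7 alternatives (circles), with the dashed line at 2-fold. Csf2, Csf3, Il11 and Il1a lie above 2-fold under all 8, Csf1, Il6 and Lif cross it with median centring, and Lif also with the normexp offset of 10.

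Under the 7 other ways of processing, the difference of the array labelled cortisol in 3T3-L1 cells ranged from 1.46 to 2.13 for Csf2, from 1.74 to 2.22 for Csf3, from 1.46 to 2.15 for Il11 and from 1.02 to 1.55 for Il1a. These 4 members stayed past 2-fold under each of them. Relative to the shift of all genes with median centring, however, Il1a fell short, at 0.96. Lif ranged from 0.68 to 1.25 and Il6 from 0.51 to 1.52, so that whether they passed 2-fold depended on the processing. Against the array labelled cortisol, Csf2 on the array labelled cortisol-serotonin ranged from -2.55 to -1.91, Il11 from -1.87 to -1.15 and Il6 from -1.51 to -1.14, while Il1a ranged from -1.49 to -0.82. In that comparison Lif ranged from -1.34 to -0.63 and Csf3 from -0.87 to -0.34.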

How the data were processed

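Total RNA of the 8 samples was measured with Agilent mouse gene expression arrays in 2 colours. The authors scanned them with Agilent Feature Extraction (the submitters' processing notes name version 10.5.1.1, the methods another). The deposited scanner files hold median signal and background intensities of both channels per spot, the processed signal of each channel, the log10 of Cy5 over Cy3 and its modelled error, and a p-value of that ratio, deposited by the authors, which was not used. The log10 ratios in the deposited series matrix match those of the scanner files within 0.005. Mean signals are not in the columns used, so median signals were taken.

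Median signals were background-corrected with normexp (offset 50) and the log2 ratio was normalised within each array by loess (limma 3.58.1, R 4.3.3), with control spots at weight 0. Spots of 1 probe were averaged, and probes were averaged per gene after leaving out those not well above background in a channel of any array compared. Accessions were named through the RefSeq gene table for 27508 of 39429 probes (69.8%, 20886 genes). The other probes were kept under their own accession, and each such accession counts as a gene in the shares of all genes. Differences between arrays were called at 2-fold, with no test, since a group is 1 array. The normalisation and difference steps were tested on simulated data, noisy copies of 1 array with known changes set in bright probes. That simulation did not cover changes in dim probes. The Cy5 level behind sums and bounds was normalised between arrays after loess. The members, the 13 gene lists and the alternatives were chosen with earlier results of these data known. All members and receptors are named, other listed genes where 2-fold changed, and for each 2-fold changed member the 3 nearest genes in 3T3-L1 cells; Fosl2 and Nfkb2, the ends of their list, were chosen after their values were seen. The 7 alternatives were Feature Extraction's log ratio, no background correction, offset 10, median centring, no filter on dim probes, the Cy5 channel alone and the brightest probe. Precision is limited by the number of arrays, 1 a condition. The kinetics, cells grown alone and protein assays of the study were not analysed here.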

Additional observations from a re-analysis of the deposited data

Results flagged for a closer look

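Csf3 and Il11 differed from untreated in opposite directions between the cell lines on the arrays labelled cortisol. Csf3 had a log2 difference of 1.83 in 3T3-L1 pre-adipocytes and -0.46 in RAW 264.7 macrophages. Il11 had a log2 difference of 1.59 in 3T3-L1 cells and -0.22 in macrophages, the latter within its Feature Extraction error. Each value is the difference of 2 single arrays, and the difference between the lines was not tested.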

How the results depend on the processing

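No paired analysis was possible because each condition has 1 array. The number of members 2-fold changed from untreated on the array labelled cortisol of 3T3-L1 cells was 4, 5 with offset 10 (Lif added) and 7 with median centring, which lifts all genes. Against the array labelled cortisol, that labelled cortisol-serotonin had 4, all lower, and 5, all lower, with no background correction or offset 10. With Feature Extraction's log ratio it had 6, of which 5 were lower and 1, Il1rn at 1.01, was higher. With median centring it had 4, of which 3 were lower and 1, Il1rn at 1.13, was higher, while Il1a fell short at -0.82. On the array labelled serotonin the number changed from untreated was 0, but 2 with Feature Extraction's log ratio and 2 with no background correction. It was 4 there with median centring and 1 with the Cy5 channel alone. On the array labelled cortisol-serotonin it was 1, but 2 with Feature Extraction's log ratio and 4 with median centring. With median centring the median of all genes was itself 1.07 and 0.99 on these arrays. A count of 4 of 9 members therefore does not set them apart there. Against the array labelled serotonin, that labelled cortisol-serotonin had 0, but 1 with the Cy5 channel alone. No share of all genes is given beside the counts under the alternatives, so none is read as a result about the members. In macrophages the array labelled serotonin had 0, but 1 with no filter on dim probes and 2 with the Cy5 channel alone, and the array labelled cortisol-serotonin 0, but 1 with Feature Extraction's log ratio and 1 with no filter. Against the array labelled cortisol it had 0, but 3 with no filter, and against that labelled serotonin 1, but 0 with Feature Extraction's log ratio, 4 with no filter and 0 with the Cy5 channel alone. Members whose arrays did not overlap between lines numbered 3, but 8 with no filter and 5 on the untreated arrays alone, where 1 array against 1 cannot overlap. The difference of Il1rn between the macrophage arrays labelled cortisol-serotonin and serotonin reversed to 0.86 with the Cy5 channel alone. Of 490 differences recomputed over the members, 438 moved by less than their Feature Extraction error, 51 by more without a reversed call, and 1 reversed; median centring gave 31 of the 51. The cause was not tested. Signals near background limit Il1b in both lines and Csf2, Il6, Lif and Il1a in macrophages.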
